A study of Homo sapiens with 6 samples.

Results

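The glial and neural stem markers described here are 10 genes picked by name from the 60612 genes of the deposited table: GFAP, NES and VIM, SOX2, SOX9 and NFIA, FABP7 and S100B, and CD44 and PROM1. All 10 were found once each. They were listed by name, not by a rule on measured values, but with earlier results of these data known. They were followed in U251, a human glioma line of astrocytic origin listed as wild type, in 3 libraries of cells kept without 6-shogaol and 3 of cells given it, each sampled at 24 h. 6-shogaol is a pungent ginger compound; the labels write its dose as 60 μm, taken here to mean micromolar. All cells grew in DMEM with fetal bovine serum, and no vehicle is named for the controls. The line stands for glioma in serum culture, without the other cells of a brain tumour. The labels do not say that replicates were separate cultures, so the spread between libraries may be technical.

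Astrocytes and the radial glia and neural stem cells from which they arise share much of their marker set, and glioma cells often express parts of both. GFAP, nestin (NES) and vimentin (VIM) are intermediate filament proteins that can assemble together: nestin and vimentin mark progenitors and GFAP marks maturing or reactive astrocytes. SOX2 maintains neural progenitors, while SOX9 and NFIA are transcription factors that promote the switch to gliogenesis. FABP7 (brain lipid-binding protein) is a fatty acid carrier of radial glia, S100B is a calcium-binding protein of astrocytes, CD44 is the hyaluronan receptor and a marker of mesenchymal glioma, and PROM1 encodes CD133, a surface protein once used to sort glioma stem cells.

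Libraries held 43516840 to 60018999 counts, and a gene without counts may still have reached 0.05 to 0.0689 CPM (counts per 1e6 counts after TMM scaling), the value of 3 counts, where only counting error is covered. Of 19279 genes tested with edgeR's quasi-likelihood test, 3.38% were called in either direction at a Benjamini-Hochberg adjusted p under 0.05, 1.71% lower and 1.67% higher with 6-shogaol.

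Against that background, 3 of the 9 tested markers were called and all 3 were lower with 6-shogaol: GFAP, FABP7 and NES. SOX2, SOX9, NFIA and S100B had negative fold changes, and CD44 and VIM positive ones, that did not pass. PROM1 was too low to test. The count of higher markers was 0 in edgeR, with 1 (CD44) at an unadjusted p under 0.05, 0 in DESeq2 and 0 in limma on FPKM. DESeq2 called 4 markers, those 3 and SOX2, where it called 10.3% of all genes it adjusted. On simulated counts DESeq2 made 77 false calls, against 9 in edgeR. Those counts were drawn with dispersions fitted by edgeR, so they do not show which DESeq2 calls are false here. The median log2 fold change of the 9 markers was -0.33, beside a median over all tested genes that rounds to 0. In bulk RNA, fewer cells with a transcript and less transcript per cell cannot be told apart.

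The stretch of 250 bases before each RefSeq transcription start was read for the markers that the sequence table holds (GRCh38.p14). These are NFIA, NES, SOX2, PROM1, FABP7, VIM and CD44, of which NFIA and PROM1 have several starts. The stretch is shown for FABP7 and NES, which were called lower, and for SOX2, whose groups separated downward without passing. It is also shown for CD44, whose groups separated upward. The CD44 stretch lies within the deposited span of that gene (35138882 to 35232402), not before it. Capitals mark matches, on either strand, to TTGGC (the half-site of nuclear factor I, the family of NFIA), to ACAANG (a core of SOX sites) and to CCAAT (the CCAAT box), where TTGGC and CCAAT can overlap within GCCAAT.
FABP7, chr6:122779466-122779715, plus strand: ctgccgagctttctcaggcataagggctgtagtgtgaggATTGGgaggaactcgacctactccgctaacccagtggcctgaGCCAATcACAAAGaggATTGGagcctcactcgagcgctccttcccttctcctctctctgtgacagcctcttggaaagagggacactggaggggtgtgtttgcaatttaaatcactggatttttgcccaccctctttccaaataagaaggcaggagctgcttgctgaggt
NES, chr1:156677408-156677657, minus strand: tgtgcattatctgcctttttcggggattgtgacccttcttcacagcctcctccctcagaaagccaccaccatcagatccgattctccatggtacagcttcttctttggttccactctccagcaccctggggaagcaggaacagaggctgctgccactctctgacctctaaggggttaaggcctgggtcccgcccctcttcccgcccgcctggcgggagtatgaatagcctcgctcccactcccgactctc
SOX2, chr3:181711675-181711924, plus strand: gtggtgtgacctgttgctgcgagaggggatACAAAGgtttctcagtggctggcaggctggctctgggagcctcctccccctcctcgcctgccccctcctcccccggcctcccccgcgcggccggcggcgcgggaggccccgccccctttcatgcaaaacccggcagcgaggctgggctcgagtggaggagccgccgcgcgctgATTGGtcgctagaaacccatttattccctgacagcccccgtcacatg
CD44, chr11:35138921-35139170, plus strand: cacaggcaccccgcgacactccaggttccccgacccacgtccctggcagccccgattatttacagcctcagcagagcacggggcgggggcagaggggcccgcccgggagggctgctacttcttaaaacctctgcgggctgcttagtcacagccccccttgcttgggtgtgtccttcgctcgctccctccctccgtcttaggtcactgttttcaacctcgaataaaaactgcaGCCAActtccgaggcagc
The FABP7 window held 1 match to TTGGC, 1 to ACAANG and 3 to CCAAT, with the TTGGC match and 1 CCAAT match on the same letters. The SOX2 window held 1 ACAANG and 1 CCAAT match, the CD44 window 1 TTGGC match, and the NES window held none of the motifs. The VIM window held none either. For NFIA, which was not called, the window at 61076977 to 61077226 held 1 match to each motif and its other windows held none. The PROM1 window at 16084024 to 16084273 held 1 CCAAT match, and its other windows held none. Of all 35116 windows of this length in the table, 40.8% held TTGGC, 30.9% ACAANG and 32.01% CCAAT, so each is common, and the matches are a description of these letters only.

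Levels of different genes were compared in the deposited FPKM values, which are scaled by gene length. VIM was the highest marker in controls at 1126 ± 14.3 FPKM (mean ± SD, n = 3), followed by NES at 116.4 ± 0.489, SOX2 at 105 ± 6.64, SOX9 at 46.6 ± 0.817 and CD44 at 20.1 ± 0.519. After a gap came GFAP at 2.03 ± 0.419 FPKM, FABP7 at 1.63 ± 0.470, NFIA at 0.424 ± 0.0528, S100B at 0.360 ± 0.242 and PROM1 at 0.00551 ± 0.00937. The library ranges of GFAP and FABP7 overlapped in controls, as did those of NFIA and S100B, so these neighbours were not ordered by the data. With 6-shogaol the means kept the same order. GFAP and FABP7 overlapped there too, as did NES (81.3 to 101.5 FPKM) and SOX2 (81.4 to 87.1), while NFIA (0.323 to 0.405) lay just above S100B (0.0961 to 0.314). VIM alone made up 78.9% to 80.0% of the summed FPKM of the 10 markers in controls and 79.2% to 87.1% with 6-shogaol.

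**Figure D1:**
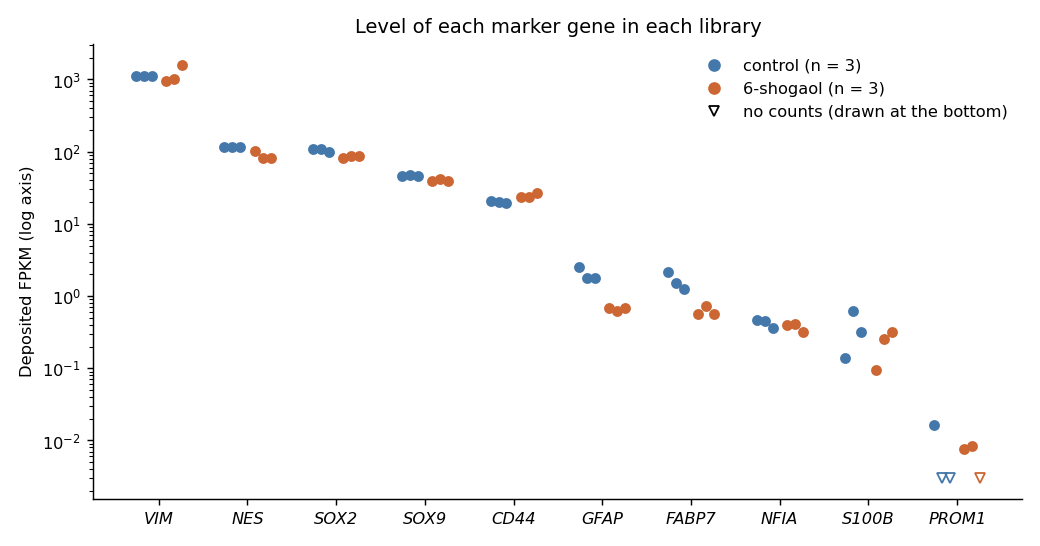
Deposited FPKM (log axis) of each marker gene in each of the 3 control and 3 6-shogaol libraries, with libraries without counts drawn as open triangles at the bottom. VIM lies near 1126 FPKM in controls, GFAP and FABP7 near 2.03 and 1.63, and PROM1 has counts in only 1 control and 2 treated libraries.

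The place of NFIA in this order depended on the length behind its FPKM. Dividing CPM by FPKM gives an implied length of 66.7 kb for NFIA in controls, against 10.9 kb of exons in GENCODE release 29. For VIM the same 2 values were 6.16 and 5.16 kb, and for SOX2 2.99 and 2.51 kb. Per kilobase of GENCODE exons NFIA stood at 2.60 CPM in controls and GFAP at 2.25, so that the mean of NFIA moved from the place after FABP7 to the place before GFAP. The control libraries of both genes overlapped on this scale (2.21 to 2.83 for NFIA and 1.96 to 2.80 for GFAP), so the data did not order them. This division was added after the data were seen and does not touch the comparison between groups within a gene.

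GFAP, the class III filament of astrocytes (ENSG00000131095, chromosome 17, 44903159 to 44916937, minus strand), had the largest fall among the markers called. Its level was 33.9, 24.2 and 23.8 CPM in control replicates 1, 2 and 3 and 9.05, 8.39 and 9.19 CPM with 6-shogaol. Every treated library lay below every control, and the treated libraries were closer together than the controls, of which replicate 1 was the highest. The means were 27.3 ± 5.73 and 8.88 ± 0.424 CPM (SD, n = 3), a 3.08-fold fall (log2 fold change -1.62, SE 0.16, 95% interval -1.99 to -1.25, edgeR adjusted p = 0.00655). The underlying counts were 1753, 1417 and 1426 in controls and 511, 421 and 400 with 6-shogaol. GFAP stayed called in each of the 6 fits without 1 library (log2 fold changes from -1.71 to -1.43, edgeR adjusted p from 0.019 to 0.0379).

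GFAP shares 18.4% of its exon length with CCDC103 and FAM187A, a pair of overlapping genes on the opposite strand, and the strand used in counting is not given in the sources used here. The summed level of that pair was 19.7 to 28.2 CPM in controls and 18.1 to 23.4 CPM with 6-shogaol. Neither neighbour passed (edgeR adjusted p = 0.423 for CCDC103 and 0.652 for FAM187A). How many GFAP counts came from the shared stretch was not tested.

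NES (ENSG00000132688, chromosome 1, 156668763 to 156677407, minus strand) fell less. It stood at 771, 777 and 768 CPM in controls and at 650.5, 539.4 and 539.6 CPM with 6-shogaol. The controls lay within 10 CPM of one another, and 6-shogaol replicate 1 stood between them and the other treated libraries. The fall was 1.34-fold (log2 fold change -0.42, SE 0.08, edgeR adjusted p = 0.0484). That adjusted p was close to the threshold, and NES kept its call in only 1 of the 6 fits without 1 library, the one without 6-shogaol replicate 1 (adjusted p = 0.0122, range over the 6 fits 0.0122 to 0.165). It was called in 4 of 14 alternatives, with log2 fold changes from -0.52 to -0.37 over the count fits, and missed the threshold in limma on log2(FPKM + 1) with the filter on low FPKM (-0.40, adjusted p = 0.06).

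VIM (ENSG00000026025, chromosome 10, 17228241 to 17237593, plus strand) showed no shared movement of its treated libraries. Controls held 7020, 6872 and 6932 CPM, close to one another, and the 6-shogaol libraries 5602, 6247 and 9763 CPM. 6-shogaol replicates 1 and 2 lay below the controls and replicate 3 above them, so the groups overlapped. The log2 fold change was 0.05 (95% interval -0.40 to 0.51, edgeR adjusted p = 0.915) and turned to -0.23 without 6-shogaol replicate 3 (adjusted p = 0.231). VIM shares 641 exon bases with VIM-AS1 and 619 with AL133415.1, both on the opposite strand, and these were low beside it (means of 2.11 and 16.03 CPM in controls). VIM exceeded GFAP in FPKM by 451 to 638 times in controls and by 1359 to 2344 times with 6-shogaol.

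**Figure D2:**
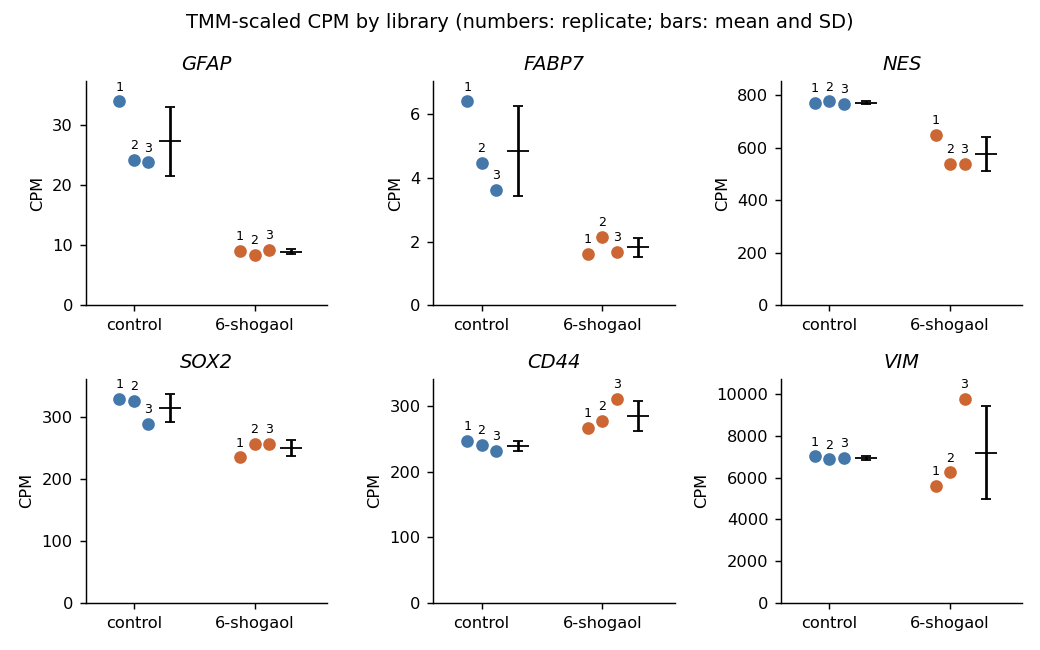
TMM-scaled CPM of 6 marker genes in each library, numbered by replicate, with the group mean and SD as bars and each axis starting at 0. All treated libraries lie below all controls for GFAP, FABP7, NES and SOX2 and above them for CD44, while VIM reaches 9763 CPM in 6-shogaol replicate 3 and 5602 and 6247 in the others.

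The progenitor factor SOX2 (ENSG00000181449, chromosome 3, 181711925 to 181714436, plus strand) was abundant in every library. Its values were 329, 326 and 290 CPM in controls and 235, 257.4 and 257.4 CPM with 6-shogaol. The groups did not overlap, but the difference did not pass (log2 fold change -0.33, 95% interval -0.51 to -0.16, edgeR adjusted p = 0.0646). It did pass in DESeq2 (adjusted p = 0.0102) and in edgeR with a filter of 1 CPM in 3 libraries (adjusted p = 0.0497), and in none of the 6 fits without 1 library. SOX2 lies in an intron of SOX2-OT, a noncoding gene on the same strand that shares none of its exon bases with SOX2 and stood at 44.3 CPM in controls and 30.0 with 6-shogaol, a difference that failed the test (edgeR adjusted p = 0.283).

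SOX9 (ENSG00000125398, chromosome 17, 72121020 to 72126416, plus strand) gave 219, 223 and 212.5 CPM in controls and 177, 199 and 180 CPM with 6-shogaol, again without overlap of the groups. Its log2 fold change of -0.24 (95% interval -0.40 to -0.08) did not pass (edgeR adjusted p = 0.114), and it was not called in any alternative run. NFIA (ENSG00000162599, chromosome 1, 60865259 to 61462788, plus strand) gave 30.8, 30.0 and 24.0 CPM in controls and 25.8, 27.1 and 21.3 CPM with 6-shogaol. Its groups overlapped and its interval included 0 (log2 fold change -0.19, 95% interval -0.51 to 0.13, edgeR adjusted p = 0.489).

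Among the small binding proteins, FABP7 (ENSG00000164434, chromosome 6, 122779716 to 122784074, plus strand) fell nearly as far as GFAP, from a lower count. It stood at 6.40, 4.48 and 3.63 CPM in controls and at 1.61, 2.15 and 1.68 CPM with 6-shogaol, from 218 to 331 and 73 to 108 counts. The groups did not overlap, and control replicate 1 was the highest library, as for GFAP. The fall was 2.66-fold (log2 fold change -1.41, SE 0.26, 95% interval -2.03 to -0.80, edgeR adjusted p = 0.0385). FABP7 lost its call in all 6 fits without 1 library, with log2 fold changes from -1.58 to -1.16 and edgeR adjusted p from 0.061 to 0.135. Over all 14 alternatives it was called in 5.

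S100B (ENSG00000160307, chromosome 21, 46598604 to 46605208, minus strand) was near the limit of what these libraries resolve. Controls held 16, 79 and 42 counts and 6-shogaol libraries 13, 29 and 31, or 0.310, 1.35 and 0.700 against 0.230, 0.578 and 0.712 CPM. The controls alone spanned the whole treated range apart from 6-shogaol replicate 1. Its log2 fold change of -0.64 had a 95% interval from -2.16 to 0.87 (edgeR adjusted p = 0.639). Without control replicate 2 that value was -0.0048, against -1.02 without control replicate 1.

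CD44 (ENSG00000026508, chromosome 11, 35138882 to 35232402, plus strand) was the 1 marker whose treated libraries all lay above the controls. It gave 247, 241 and 232 CPM in controls and 267, 278 and 311 CPM with 6-shogaol. The difference of 1.19-fold did not pass (log2 fold change 0.25, 95% interval 0.08 to 0.43, edgeR adjusted p = 0.12; 0.0722 to 0.292 over 14 alternatives). The gene has 39 transcripts in GENCODE 29, and gene totals say nothing of how they were used. PROM1 (ENSG00000007062, chromosome 4, 15963076 to 16084023, minus strand) had 8, 0 and 0 counts in controls and 4, 4 and 0 with 6-shogaol, was removed by the filter on low counts, and gives no comparison at this depth.

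**Figure D3:**
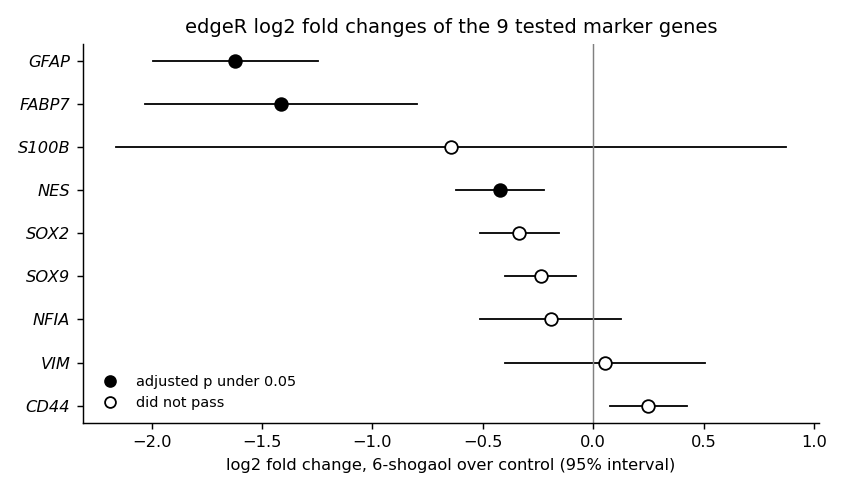
edgeR log2 fold changes (6-shogaol over control) of the 9 tested marker genes with 95% intervals, filled where the adjusted p was under 0.05. GFAP at -1.62, FABP7 at -1.41 and NES at -0.42 are filled, and S100B has the widest interval.

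Without regard to the test, 5 markers had lower groups that did not overlap (GFAP, FABP7, NES, SOX2 and SOX9), 1 had higher ones (CD44) and 3 overlapped. Among all tested genes, 27.9% had groups that did not overlap, 13.9% with the treated libraries lower. The number of called markers moved with the libraries: it was 1 (GFAP) in each fit without a control or without 6-shogaol replicate 2 or 3, and 2 (GFAP and NES) without 6-shogaol replicate 1. Over all genes the count of calls fell from 651 to between 98 and 174 in the former fits and rose to 1012 in the latter.

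**Figure D4:**
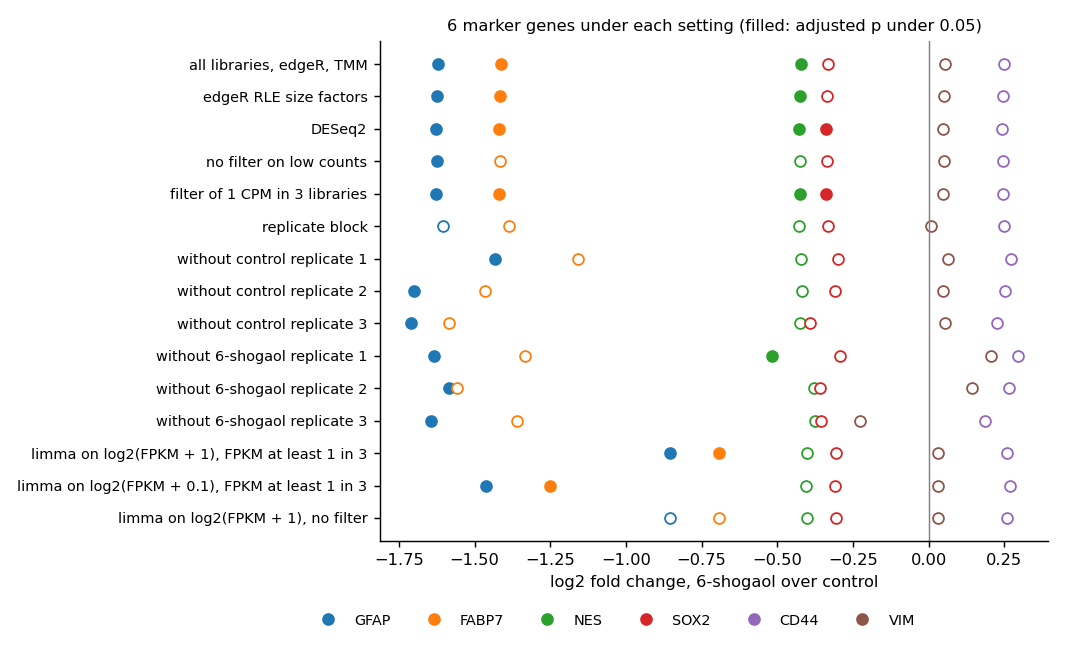
log2 fold changes (6-shogaol over control) of 6 marker genes under each setting, filled where the adjusted p was under 0.05. GFAP, near -1.62 in most count fits, is filled in all but 2 settings, FABP7 is open in every fit without 1 library, and VIM changes side without 6-shogaol replicate 3.

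Genes related to these markers were read from 14 lists holding 227 distinct genes, of which 158 were tested outside the markers themselves. edgeR called 12 lower and 4 higher, 10.1% of them. The lists overlap, were chosen with earlier results known and hold many abundant genes, so that share says nothing particular to them. NEFL and SOX4 stayed called in each of the 6 fits without 1 library. SPP1 kept its call only where a treated library was left out, SOX18 only without 6-shogaol replicate 1 or 2, and LGALS9 and CDH5 only without 6-shogaol replicate 1 or 3. Another 9 (SYNM, LMNA, ALDH1A3, ID1, ID3, S100A2, COL1A1, TNC and STAT3) kept it only without 6-shogaol replicate 1.

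Of 16 tested other intermediate filament genes 3 fell and none rose (0 higher at an unadjusted p under 0.05, in DESeq2 or in limma), with a median log2 fold change of -0.29. NEFL, the light neurofilament protein, went from 418 ± 12.7 CPM down to 282 ± 1.75 CPM with 6-shogaol (-0.57 on the log2 scale, edgeR adjusted p = 0.00655). SYNM, the filament linker synemin, fell by 0.54 on the log2 scale (edgeR adjusted p = 0.0274) and the nuclear lamin LMNA by 0.43 (adjusted p = 0.0471). The filament gene with the highest FPKM of the list, the lamin LMNB2 (94.4 FPKM), had a value of -0.18 and did not pass.

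Of 15 tested other astrocyte markers edgeR called 0, with 1 higher and 4 lower at an unadjusted p under 0.05, 3 lower in DESeq2 and 1 lower in limma. Their median was -0.15. SPARC, a secreted matrix protein, was the highest at 409 FPKM and had a log2 fold change of -0.18 (edgeR adjusted p = 0.101). AQP4, the astrocyte water channel, and ALDH1L1, a folate enzyme used to mark astrocytes, were low, at means of 0.296 and 0.0807 CPM over the 6 libraries. These were singled out after their values were seen: of the 22 genes on the list, 10 had a mean of at least 1 FPKM and 10 a mean under 0.1 FPKM.

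Of 21 tested other neural and glioma stem genes 2 rose and 2 fell, with a median of 0.10. SOX4, a SOX factor of progenitors, stood at 325 ± 17.6 CPM in controls and 195 ± 6.89 CPM with 6-shogaol (-0.74 on the log2 scale, edgeR adjusted p = 0.00635). The inhibitors of differentiation ID1 and ID3, both antagonists of basic helix-loop-helix factors, went opposite ways, with ID1 rising by 0.40 and ID3 falling by 0.37 on the log2 scale (edgeR adjusted p = 0.0197 and 0.0355). ALDH1A3, a retinaldehyde dehydrogenase linked to mesenchymal glioma stem cells, rose by 0.47 (edgeR adjusted p = 0.0283).

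Within the families of the markers, 1 of the 11 tested genes on the SOX and NFI list fell, the vascular factor SOX18 (log2 fold change -0.56, edgeR adjusted p = 0.017). That list leaves out SOX4, a SOX gene that also fell and is counted with the stem and proneural genes. NFIX was the most abundant gene on the list at 57.9 FPKM and did not pass. Its controls stood at 237, 515 and 556 CPM and its treated libraries at 451, 402 and 423 CPM. Of 13 FABP and S100 relatives 1 fell, S100A2 (-0.48, edgeR adjusted p = 0.0492). S100A6, the highest at 868 FPKM, had a value of -0.03.

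Around CD44, of 20 tested ligand, sheddase and adaptor genes 1 rose and 1 fell. SPP1 encodes osteopontin, a secreted ligand of CD44 and of integrins, and rose from a control mean of 394 ± 10.7 CPM to 650 ± 69.9 CPM (0.72 on the log2 scale, edgeR adjusted p = 0.0104). LGALS9, a galectin, fell by 1.22 on the log2 scale (edgeR adjusted p = 0.0232). Of 24 mesenchymal glioma genes 1 rose and 3 fell. COL1A1 (-0.67), the matrix protein gene TNC (-0.56) and STAT3 (-0.39) fell, and LGALS1, the highest at 369 FPKM, had a value of -0.30 that did not pass (edgeR adjusted p = 0.0779). Of 13 proneural glioma genes 1 fell, SOX4, which the stem list also holds, while OLIG1 had no counts in any library.

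**Figure D5:**
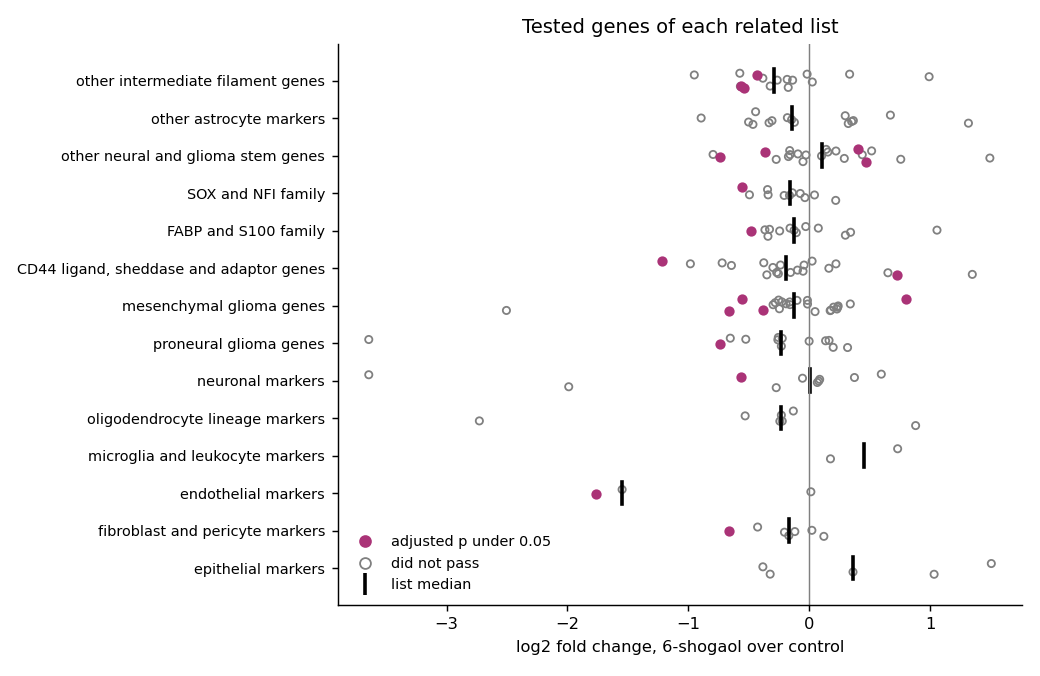
log2 fold changes (6-shogaol over control) of the tested genes in each of the 14 related lists, filled where the edgeR adjusted p was under 0.05, with the list median as a bar. Called genes lie on both sides for the stem, CD44 and mesenchymal lists, and the 3 called other filament genes lie between -0.57 and -0.43.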

How the data were processed

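RNA sequencing libraries of U251 cells were grouped by sample title, 3 without and 3 with 6-shogaol; per the labels, total RNA came from a Trizol extraction and the library kit was SMARTER mRNA-Seq. The authors deposited raw counts per gene and a table with FPKM values, per the file headers, where 0.0001 stands for most zeros. The aligner, counter and strand setting are not given in the sources used here. The submitters' processing notes list the mouse builds GRCm38 and mm10, but all 60612 identifiers are human Ensembl genes. Coordinates are those of the deposited table, and they overlap the same genes in GENCODE 29 (GRCh38). Of sample columns outside the series there were 0.

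Counts were tested across all genes with edgeR 4.0.16 in R 4.3.3 (filterByExpr, TMM, glmQLFit, glmQLFTest, Benjamini-Hochberg, threshold 0.05). The SE of a log2 fold change is its size over the root of edgeR's F statistic, and 95% intervals use the fit's degrees of freedom. CPM values are TMM-scaled. Alternatives were RLE scaling, DESeq2 1.42.0, edgeR without filtering or keeping genes at 1 CPM or more in 3 libraries, a replicate block, each library left out, and limma 3.58.1 on log2(FPKM + 1) or log2(FPKM + 0.1). All members are named, with the 2 most changed called genes (mean of at least 1 CPM) and the highest FPKM of each list. Other called genes, AQP4, ALDH1L1 and neighbours sharing exons or lying around a marker were named after their values were seen. So were the genes named for having no counts (OLIG1, AIF1, CD3E, MOG and MAG). Individual results for 2 genes of the related lists are not reported here, but the list counts include them. Members, lists and tests were chosen with earlier results of these data known. Counts were simulated with each gene's mean level here and the spread between libraries (dispersion) that edgeR fitted to it. On these counts edgeR (18591 genes in the fit) found 14% of the genes given a 1.5-fold change and 58% of those given 2-fold. It found 73.5% of those given 3-fold and 94% of those given 4-fold, and made 9 false calls. DESeq2 (19278 genes in the fit) found 28%, 80%, 92% and 100% in that order of fold and made 77 false calls. Changes were given only to genes above a minimum expected count, so these shares do not cover low genes.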

Additional observations from a re-analysis of the deposited data

How the results depend on the processing

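GFAP kept its direction in all 14 alternatives and its call in 12. It lost the call in limma on log2(FPKM + 1) without a filter (adjusted p = 0.0551) and with the replicate block (adjusted p = 0.0619). The reason was not tested. The replicate block left 0 markers called (1 higher and 5 lower at an unadjusted p under 0.05), 0 genes of the related lists (10 higher and 35 lower unadjusted) and 3 genes in all. Same-numbered libraries deviated together by correlations of only -0.03, 0.06 and -0.04, so the replicate numbers are not taken to pair them. Called markers numbered 1 with no filter, 0 in limma with no filter (1 higher and 5 lower unadjusted), and 1 to 2 without 1 library. Over all genes DESeq2 called 1561 (10.3% of those it adjusted), edgeR with no filter 378 and limma with no filter 277, against 98 to 1012 without 1 library. For the related lists the counts were 30 in DESeq2, 8 in limma with no filter and 3 to 27 without 1 library. Log2 fold changes that turned sign were those of VIM without 6-shogaol replicate 3 (-0.23 to 0.21 over the fits without 1 library), NFIX with the replicate block (0.051), in limma (0.0762 with or without the filter and 0.0794 with a pseudocount of 0.1) and without some controls (-0.33 to 0.18), S100A6 without control replicate 2 (-0.069 to 0.011) and KDR with the replicate block (-0.0071) and in 4 of 6 fits without 1 library (-0.10 to 0.20). The cause of these changes of sign was not tested. None of these genes was called. The NFIA to GFAP level ratio in controls was 0.209 in FPKM and 1.153 per GENCODE exon length. Depth limits S100B and PROM1.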

Other observations

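Markers of other cell types were low for some lists and abundant for others. A mean under 0.1 FPKM was found for 8 of 10 microglia and leukocyte, 6 of 8 endothelial, 10 of 14 oligodendrocyte, 9 of 15 neuronal, 5 of 8 epithelial and 3 of 10 fibroblast and pericyte markers. Summed FPKM of the endothelial list ran from 0.625 to 0.728 in controls and from 0.315 to 0.462 with 6-shogaol; of its 3 tested genes the junction cadherin CDH5 dropped from 2.35 ± 0.14 CPM to 0.691 ± 0.145 CPM (-1.77 on the log2 scale, edgeR adjusted p = 0.0192), and the receptor KDR had a value of 0.01. For microglia and leukocytes the sum was 5.28 to 6.02 in controls and 6.66 to 11.5 with 6-shogaol. Nearly all of it was CD68, a lysosomal protein (log2 fold change 0.73, edgeR adjusted p = 0.117). CD68 shares 81.7% of its exon length with AC016876.2 on the same strand, and how reads were split between them was not tested. AIF1 and CD3E, on the same microglia and leukocyte list, had no counts. edgeR called 0 of the 2 tested genes of that list (1 higher at an unadjusted p under 0.05, 1 higher in DESeq2, 0 in limma). It also called 0 of 7 oligodendrocyte lineage genes (2 lower unadjusted, 1 lower in DESeq2, 0 in limma), where MOG and MAG had no counts and CNP was highest at 20.8 FPKM (log2 fold change -0.53, edgeR adjusted p = 0.156). Its summed FPKM was 26.2 to 32.0 in controls and 18.1 to 25.8 with 6-shogaol. Of 10 tested neuronal genes 1 fell, NEFL, which is also a filament gene. Of 7 tested fibroblast and pericyte genes 1 fell, COL1A1, and COL1A2 was highest at 108 FPKM (log2 fold change -0.17). For 5 epithelial genes edgeR called 0 (2 lower unadjusted, 0 in DESeq2 and in limma), with KRT8 at 19.0 FPKM and a value of -0.32.

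The length implied by the deposited FPKM matched GENCODE exons for most genes. Over 18970 tested genes the ratio of CPM per FPKM to exon kilobases had a median of 1.195, and 88.4% of genes lay within 1.1-fold of it. NFIA stood at 5.13 times that median, and 0.49% of genes were at or above it. Another 3 markers departed by less: S100B at 1.26, GFAP at 0.93 and FABP7 at 0.912 times the median. The deposited FPKM of 254 genes, 1.34%, implied more than 3 times the median, so their levels relative to other genes depend on which exon length is used.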
